A study of Arabidopsis thaliana with 15 samples.

Results

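Arabidopsis thaliana seedlings of the suppressor line brs1-1D were compared with WS2 wild type, to ask which transcripts still differ from wild type in a receptor mutant that carries the suppressor. The comparison was chosen by genotype label and takes 6 of the 15 arrays of the study, 3 of brs1-1D and 3 of WS2. The brs1-1D plants have the genotype bri1-5/brs1-1D, so they carry the receptor allele bri1-5 as well as the dominant suppressor brs1-1D, and both groups are in the WS2 background. The genotypes on the remaining arrays (bri1-5 alone, bri1-5/bri1-1D and bri1-5/bak1-1D, called bri1-5, bri1-1D and bak1-1D here) also have that background and serve only for side values. All were seedlings kept for 5 days in the light on solid MS medium with 1% sucrose, and total RNA of whole seedlings was hybridised to Affymetrix ATH1 arrays. The study states that the 3 arrays of a genotype are biological replicates, and its labels do not say how the line was made or whether more than 1 isolate was used. Of the 22810 probe sets on the array, 15912 passed the filter on low values and were tested.

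Brassinosteroids are plant steroid hormones that promote cell elongation, and they are sensed at the cell surface by the receptor kinase BRI1 together with its co-receptor BAK1. Binding of the hormone leads to activation of the transcription factors BZR1 and BES1, which raise many genes for cell wall loosening and growth. BRS1 codes for a secreted serine carboxypeptidase-like protein, and its dominant allele brs1-1D was isolated as a suppressor of bri1-5, a weak allele with a change in the extracellular part of the receptor.

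The values are log2 expression per probe set, so a difference of 1 is a 2-fold change. Differences are given as brs1-1D minus WS2 with the standard error (SE) of a limma model fitted to all 15 arrays, with n = 3 arrays in each genotype. A probe set was called where its p, adjusted by Benjamini-Hochberg across every probe set tested, lay under 0.05. Array medians over tested probe sets were 6.78 to 6.82 in brs1-1D and 6.75 to 6.81 in WS2. Correlations across probe sets were 0.992 to 0.993 among brs1-1D arrays and 0.993 to 0.994 among WS2 arrays, and 0.976 to 0.982 between the groups. The 3' to 5' gap of the GAPDH control, a sign of RNA quality, was 0.181 to 0.267 in brs1-1D and 0.198 to 0.255 in WS2, and the ranges overlapped. In the annotation used, no probe set is listed for BRI1, BAK1 or BRS1 itself, so the level of the suppressor gene was not analysed here. That annotation lists no gene for 8730 probe sets, and whether any of them measures BRS1 was not examined.

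The brs1-1D seedlings differed from WS2 at 3241 tested probe sets (20.4%), of which 1735 were higher (10.9%) and 1506 lower (9.46%). Most of these differences were small. The median absolute difference was 0.45 over the called probe sets and 0.15 over all tested ones. Changes of at least 2-fold were called for 233 probe sets (1.46%), 120 higher (0.754%) and 113 lower (0.71%). The arrays of the 2 groups did not overlap at 5635 probe sets (35.4%). Among the 8661 tested probe sets with a single listed gene, 1686 were called (19.5%), 915 higher (10.6%) and 771 lower (8.9%). The median difference over all tested probe sets was 0.01.

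**Figure D1:**
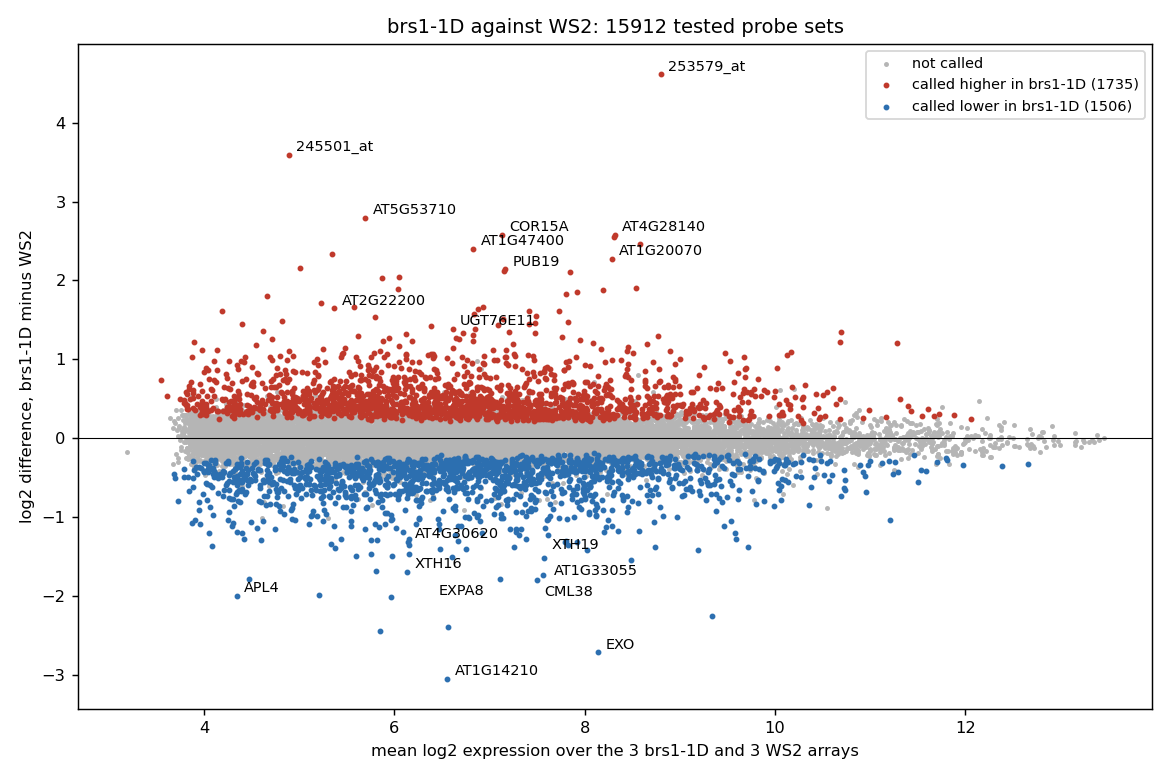
Each point is 1 tested probe set, with its mean log2 expression over the 3 brs1-1D and 3 WS2 arrays on the horizontal axis and its log2 difference (brs1-1D minus WS2) on the vertical axis. Red points were called higher (1735) and blue points lower (1506), and the largest difference, 4.61, belongs to 253579_at.

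The 5 tested genes listed as brassinosteroid-induced stayed below wild type in brs1-1D. All 5 were called lower, against 9.46% of all tested probe sets, and their median difference was -1.52 against 0.01 over all tested. This list was chosen with earlier results of these data known, so its share is no independent support. All 5 were also called lower in bri1-5, bak1-1D and bri1-1D against WS2. Of all tested probe sets 17.6%, 10% and 20.7% were called there, in either direction. EXO codes for an extracellular protein needed for cell expansion. Its log2 expression was 6.73, 6.82 and 6.81 on the brs1-1D arrays, against 9.35, 9.69 and 9.46 on the WS2 arrays. The groups lay far apart, and EXO fell by 2.71 (SE 0.18, adjusted p = 1.62e-07), a level 6.56-fold lower in brs1-1D. EXPA8, an expansin that loosens the cell wall, had 6.29, 6.42 and 5.96 in brs1-1D, against 7.83, 7.90 and 8.27 in WS2. The difference was -1.78 ± 0.18 (adjusted p = 8.74e-06), again with no overlap. ARL, an organ size gene related to ARGOS, had 7.06, 7.10 and 7.11 in brs1-1D, against 8.22, 8.29 and 7.86 in WS2. ARL fell by 1.03 (SE 0.10, adjusted p = 6.7e-06). The tubulin gene TUB1 fell by 0.87 (SE 0.11), and XTH19, described next, completes the list.

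XTH genes code for enzymes that cut and rejoin xyloglucan, a polymer that ties cellulose together in the cell wall. Of 6 tested members 4 fell, where 9.46% of all tested probe sets were lower, and none was called higher. The median was -1.01. XTH16 had 5.44, 5.00 and 5.44 in brs1-1D, against 6.75, 7.35 and 6.84 in WS2, a difference of -1.69 ± 0.14 (adjusted p = 1.74e-06). XTH19 had 6.61, 7.00 and 6.82 in brs1-1D, against 8.14, 8.49 and 8.36 in WS2. It differed by -1.52 ± 0.14, and XTH18 by -1.17 ± 0.14 and XTH33 by -0.85 ± 0.13. In all 4 the lowest WS2 array was above the highest brs1-1D array. The groups did not overlap at 35.4% of all tested probe sets and in 100 of the 102 named calls. XTH32 (-0.18 ± 0.10) and XTH20 (0.12 ± 0.11) were not called. XTH19 is also a member of the brassinosteroid-induced list.

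**Figure D2:**
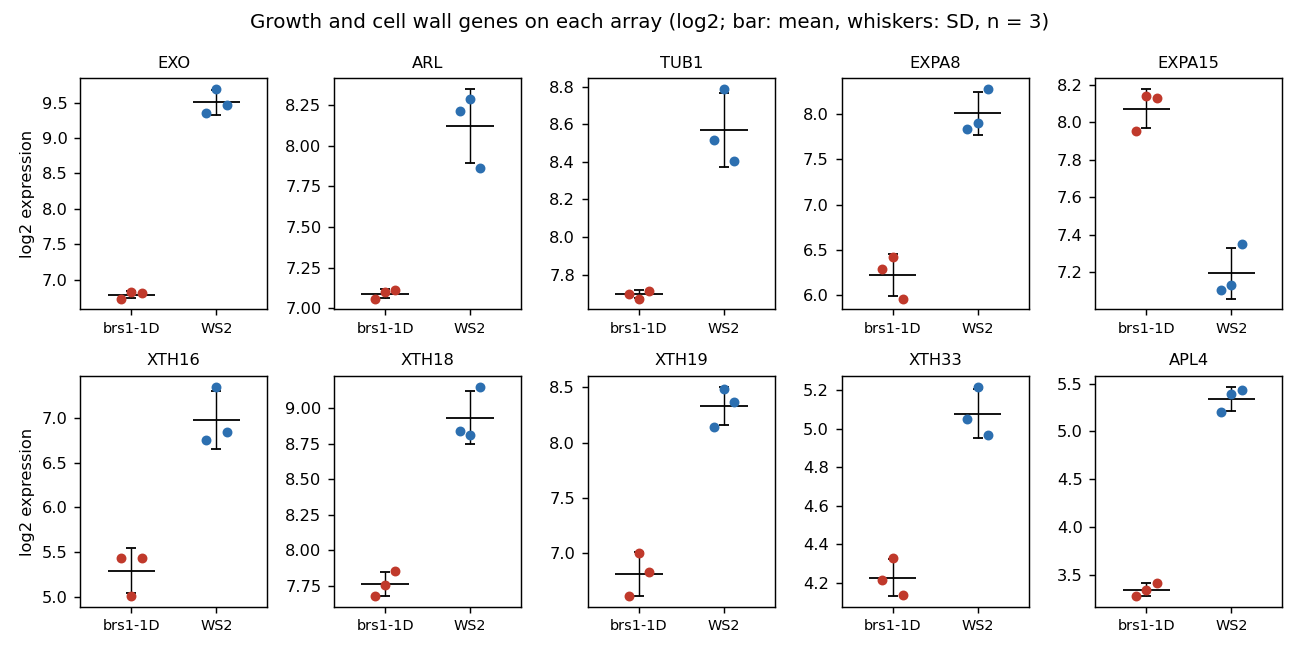
Log2 expression of 10 growth, cell wall and starch genes on the 3 brs1-1D arrays (red, left) and the 3 WS2 arrays (blue, right), with bars at the mean and whiskers of 1 SD; the vertical axes are log2 and differ between panels. EXPA15 is higher in brs1-1D and the other 9 genes are lower, and in no panel do the groups overlap. The groups did not overlap at 35.4% of all tested probe sets.

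The expansin family as a whole did not move one way. Of 14 tested members 3 rose and 2 fell, against 10.9% and 9.46% of all tested probe sets, and the median was 0.03. EXPA15 had 7.95, 8.14 and 8.13 in brs1-1D, against 7.10, 7.13 and 7.35 in WS2. It rose by 0.88 (SE 0.12, adjusted p = 8.29e-05), opposite to EXPA8. EXPA20 rose by 0.45 (SE 0.10). EXPB1 fell by 0.39 (SE 0.12, adjusted p = 0.032), a call that was lost without brs1-1D replicate 1 or 3 or WS2 replicate 1 or 3, with differences of -0.30 to -0.39.

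Tubulins form the microtubules that guide cellulose deposition, and 4 of 7 tested members fell while 1 rose, with a median of -0.36 (9.46% and 10.9% of all tested probe sets). Beside TUB1, TUB5 (-0.59 ± 0.13), TUB6 (-0.37 ± 0.08) and TUB7 (-0.36 ± 0.08) were lower. Among 9 genes for other cell wall polymers 2 rose and 1 fell, against 10.9% and 9.46% of all tested probe sets. The median was 0.08. CSLD2, a cellulose synthase-like gene, rose by 0.44 (SE 0.09, adjusted p = 0.00307). IRX15-L, needed for xylan synthesis, had a difference of 0.48 ± 0.13, which was not called without brs1-1D replicate 2 (0.45) or WS2 replicate 2 (0.45). CSLA03 differed by -0.63 ± 0.17 on overlapping arrays. Its call was lost without brs1-1D replicate 2 or 3 or WS2 replicate 2, where the adjusted p was 0.073, 0.0607 and 0.0767.

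Of the brassinosteroid pathway itself only 3 listed genes were tested. BIM1, a bHLH partner of BES1, had 7.49, 7.58 and 7.35 in brs1-1D, against 7.05, 6.80 and 6.94 in WS2. It rose by 0.54 (SE 0.11, adjusted p = 0.00209). BRL1, a receptor kinase related to BRI1 whose WS2 values lie below the filter level, had a difference of 0.44 ± 0.12 (adjusted p = 0.0137), and it was no longer called without brs1-1D replicate 1 (0.34, adjusted p = 0.0682) or WS2 replicate 3 (0.36, adjusted p = 0.0659). BAT1, an acyltransferase that inactivates brassinosteroids, was not called (-0.18 ± 0.10). Listed genes of brassinosteroid and sterol synthesis had no tested probe set with a name.

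Of 6 auxin response genes 2 were called lower and 1 higher, where 9.46% and 10.9% of all tested probe sets were, and all 3 code for enzymes that conjugate auxin to amino acids. GH3.3 had 7.41, 7.45 and 7.43 in brs1-1D, against 7.91, 8.15 and 8.16 in WS2, and fell by 0.65 (SE 0.09, adjusted p = 9.38e-05). GH3.17 fell by 0.36 (SE 0.08). WES1 had a difference of 0.55 ± 0.15, a call lost without brs1-1D replicate 2 (0.47) or WS2 replicate 1 (0.39). Of 4 cell cycle genes, the mitotic kinase gene AUR1 fell by 0.46 (SE 0.09) and SIM, an inhibitor of the mitotic cycle, rose by 0.40 (SE 0.08).

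The largest fall at a probe set with a named gene was that of AT1G14210, a member of the ribonuclease T2 family. It had 4.74, 5.23 and 5.13 in brs1-1D, against 8.10, 8.14 and 8.01 in WS2. The difference of -3.05 ± 0.12 (adjusted p = 9.8e-11) is an 8.26-fold lower level. APL4 codes for a large subunit of ADP-glucose pyrophosphorylase, which makes the precursor of starch. Its values were 3.28, 3.34 and 3.41 in brs1-1D, against 5.20, 5.39 and 5.43 in WS2, a difference of -2.00 ± 0.10. It lay below the filter level of 4 on every array but the 3 of WS2 and passed the filter through them, so its direction was fixed by the filter and low values make the size uncertain. APL4 was the only 1 of 6 tested starch genes that was called, and the list median was -0.15. Other large falls were those of AT2G28780 (-1.78, below the filter level in brs1-1D), the glutaredoxin family gene AT1G06830 (-1.68), AT4G37240 (-1.49), AT4G18970 (-1.42), AT5G03120 (-1.40) and AT3G06070 (-1.40).

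**Figure D3:**
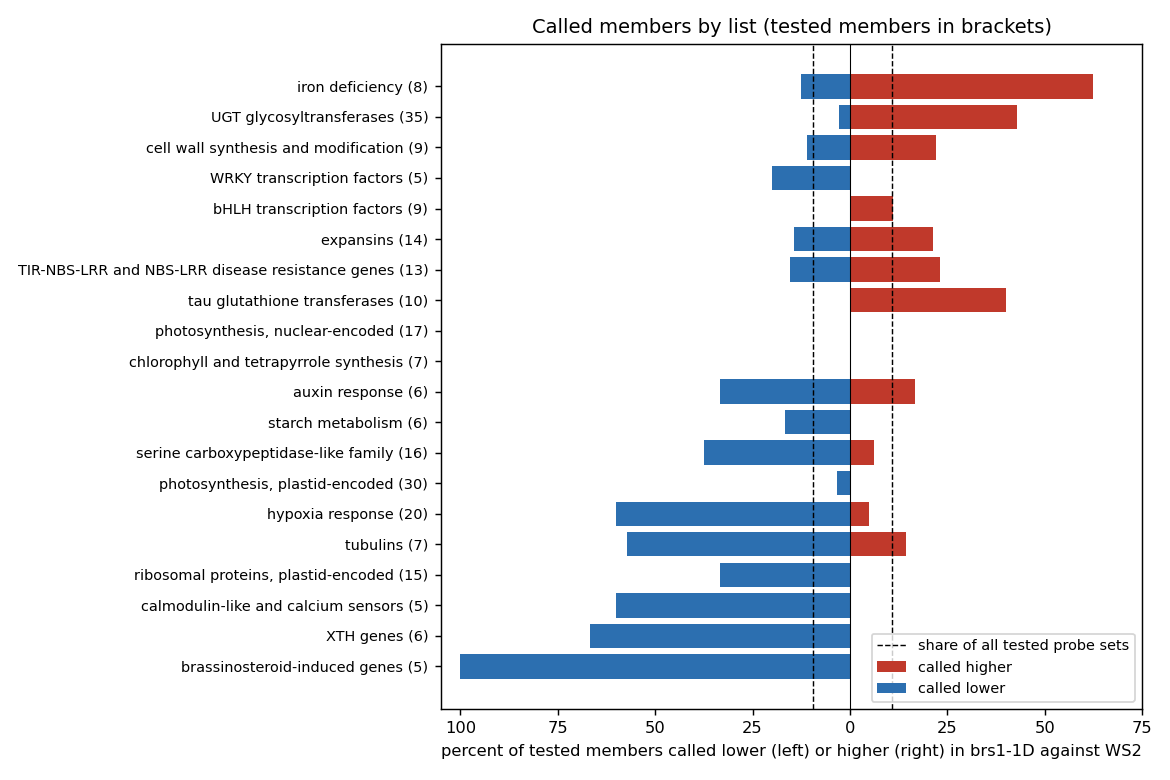
Share of the tested members of each list that were called lower (blue, left) or higher (red, right) in brs1-1D against WS2, in percent, for the lists with at least 5 tested members, whose number stands in brackets. The dashed lines give the shares over all tested probe sets (9.46% lower and 10.9% higher). The brassinosteroid-induced list reaches 100% lower and the iron deficiency list 62.5% higher. The iron share counts AT3G61930, whose direction was fixed by the filter. All lists were chosen with earlier results of these data known.

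Genes known to rise when plant cells lack oxygen were mostly lower in brs1-1D. Of 20 tested members 12 fell and 1 rose, against 9.46% and 10.9% of all tested probe sets, and the median was -0.35. CML38, a calmodulin-like calcium sensor, had 6.59, 6.67 and 6.52 in brs1-1D, against 8.44, 8.36 and 8.39 in WS2. It fell by 1.80 (SE 0.22, adjusted p = 4.28e-05). AT1G33055 had 6.64, 6.60 and 6.84 in brs1-1D, against 8.51, 8.78 and 8.01 in WS2, and fell by 1.74 (SE 0.16, adjusted p = 3.68e-06). AT3G10040, also named HRA1, codes for a transcription factor of the hypoxia response. It had 5.71, 6.07 and 5.77 in brs1-1D, against 7.57, 7.75 and 6.74 in WS2, a difference of -1.50 ± 0.25 (adjusted p = 0.00059). WS2 replicate 3 was the lowest WS2 array for both AT1G33055 and AT3G10040, yet the groups did not overlap. The other 9 members that fell had differences between -0.31 and -1.28. AT1G72060 rose, with 8.38, 8.66 and 8.63 in brs1-1D, against 7.51, 6.98 and 6.77 in WS2 (1.47 ± 0.20, adjusted p = 9e-05). PDC2, which codes for pyruvate decarboxylase of ethanol fermentation, was not called (-0.04 ± 0.13).

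The calmodulin-like list overlaps with this result through CML38. Of its 5 tested members 3 were called lower (9.46% of all tested probe sets), with a median of -0.50. CML41 differed by -0.92 ± 0.25 and was not called without brs1-1D replicate 1 (adjusted p = 0.0695) or WS2 replicate 1 (adjusted p = 0.0668). CML42 differed by -0.50 ± 0.15, and its call was lost without brs1-1D replicate 1 or 3 or WS2 replicate 1 (adjusted p = 0.0699, 0.0694 and 0.0974).

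Iron deficiency genes were higher in brs1-1D. Of 8 tested members 5 rose and 1 fell, against 10.9% and 9.46% of all tested probe sets, and the median was 0.73. The 5 include AT3G61930, whose direction was fixed by the filter, as described below. AT1G47400 had 7.93, 8.11 and 8.05 in brs1-1D, against 6.31, 4.93 and 5.64 in WS2. The WS2 arrays were widely spread but all lay below the brs1-1D arrays, and the gene rose by 2.40 (SE 0.28, adjusted p = 2.93e-05). PYE, a bHLH transcription factor of iron homeostasis, had 5.92, 5.90 and 6.06 in brs1-1D, against 4.77, 4.84 and 5.17 in WS2 (1.03 ± 0.16, adjusted p = 0.000249). AT3G61930 had 4.49, 4.64 and 5.12 in brs1-1D, against 3.72, 3.80 and 3.78 in WS2 (0.98 ± 0.15). It lay above the filter level on the brs1-1D arrays only and passed the filter through them, so its direction was fixed by the filter. AT1G74770 rose by 0.97 (SE 0.18). The 2 remaining calls, named after their values were seen, were AT5G38820 (0.48 ± 0.15, adjusted p = 0.0313) and AT1G73120, the member that fell (-0.35 ± 0.08, adjusted p = 0.00699).

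Cold and abscisic acid genes held some of the largest rises. Of 4 tested members 2 were called higher, against 10.9% of all tested probe sets. Each of bri1-5, bak1-1D and bri1-1D also had 2 of 4 called higher against WS2, and bri1-5 had 1 called lower. Of all tested probe sets 17.6%, 10% and 20.7% were called in these 3 comparisons, in either direction. In brs1-1D against bri1-5 none was called (1.72% of all tested probe sets), and the median was 0.65. COR15A and COR15B code for chloroplast proteins that protect membranes in the cold. COR15A had 8.52, 8.04 and 8.70 in brs1-1D, against 5.67, 5.65 and 6.22 in WS2. It rose by 2.58 (SE 0.28, adjusted p = 1.45e-05), a 5.96-fold higher level. COR15B had 9.32, 8.82 and 9.24 in brs1-1D, against 7.11, 7.20 and 7.45 in WS2, and rose by 1.88 (SE 0.29, adjusted p = 0.000278). The 2 other tested members were not called. COR47 differed by 0.47 ± 0.16 (adjusted p = 0.0513) on arrays that did not overlap, and STZ by -0.24 ± 0.24. The dehydrin gene LTI30, added after its values were seen, differed by 1.20 ± 0.35 (adjusted p = 0.0243), and its call was lost without any of brs1-1D replicate 1 or 3 or WS2 replicate 1 or 2 (adjusted p between 0.0555 and 0.0868).

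**Figure D4:**
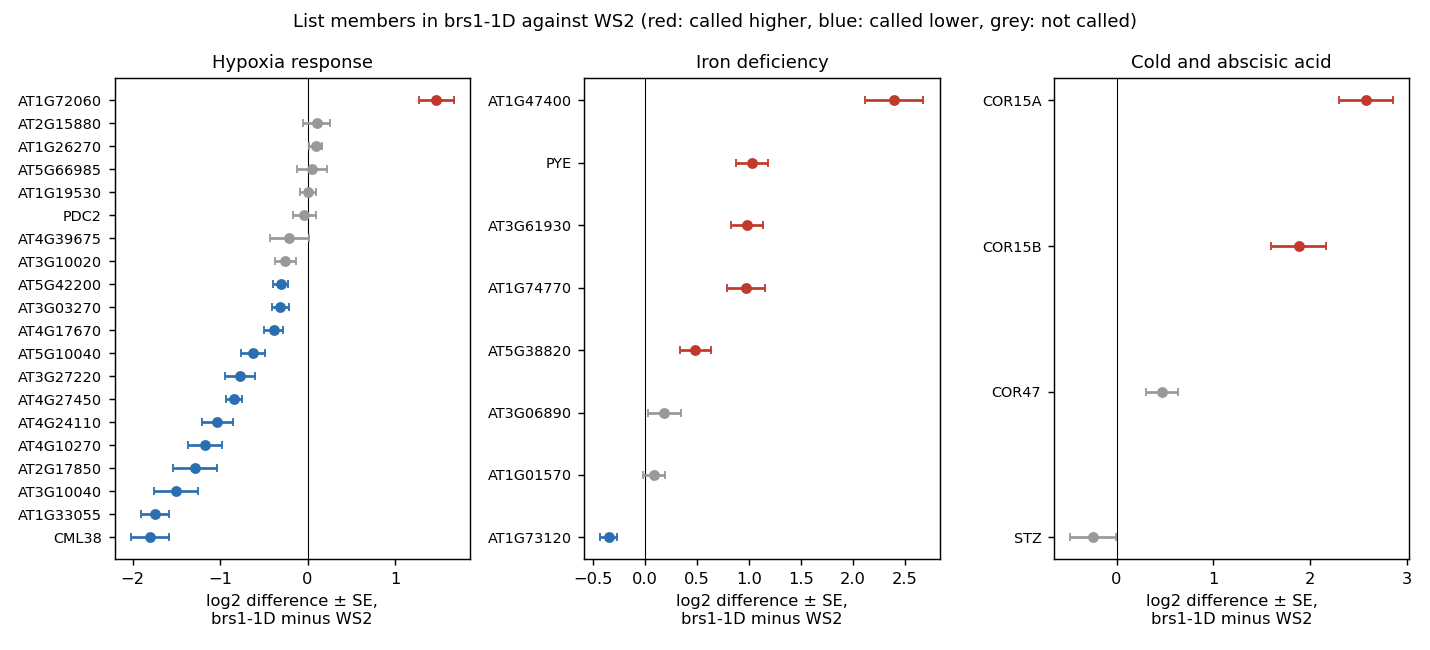
Log2 difference (brs1-1D minus WS2, horizontal axis) with its SE for each tested member of the hypoxia, iron deficiency, and cold and abscisic acid lists, red where called higher, blue where called lower and grey where not called. In the hypoxia panel 12 genes lie left of 0 in blue, from -0.31 to -1.80, and 5 iron genes lie right of it in red, from 0.48 to 2.40. Of these iron genes, AT3G61930 had its direction fixed by the filter.

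Some transcription factor genes are named here by the size of their change, since the ERF and DREB list had no tested member. AT4G28140, an ERF family gene, had 9.42, 9.74 and 9.66 in brs1-1D, against 7.31, 6.24 and 7.54 in WS2. It rose by 2.58 (SE 0.27, adjusted p = 1.02e-05). AT2G22200, of the same family, had 6.40, 6.06 and 6.12 in brs1-1D, against 4.50, 4.47 and 4.66 in WS2, and rose by 1.65 (SE 0.13, adjusted p = 1.13e-06). AT1G64380, likewise of that family and added after its values were seen, rose by 1.14 (SE 0.20). AT1G10585, a bHLH gene outside the list of that family, had 4.68, 5.66 and 4.63 in brs1-1D, against 3.53, 3.18 and 3.42 in WS2, which are below the filter level. It rose by 1.61 (SE 0.32, adjusted p = 0.00194), with brs1-1D replicate 2 well above the other arrays of its group. In the bHLH list 1 of 9 tested members was called, which was BIM1. The ubiquitin ligase gene PUB19 had 8.22, 8.38 and 8.11 in brs1-1D, against 6.27, 5.41 and 6.60 in WS2 (2.14 ± 0.37, adjusted p = 0.000711).

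The largest rise at a probe set with a named gene was that of AT5G53710, with 6.72, 7.33 and 7.23 in brs1-1D, against 4.87, 3.73 and 4.28 in WS2 (2.80 ± 0.27, adjusted p = 4.61e-06). AT1G20070 rose by 2.27 (SE 0.24), AT5G47330 by 2.04 (SE 0.20), AT3G56260 by 1.66 (SE 0.16) and AT5G01740 by 1.61 (SE 0.13). AT5G05250 (1.46 ± 0.19) and AT5G54300 (1.43 ± 0.29) complete the 15 largest rises. One array moved with these rises. WS2 replicate 2 was the lowest WS2 array in 12 of the 15 genes, and it was the highest WS2 array in 9 of the 15 largest falls. Without it all 15 rises were still called, with differences of 1.14 to 2.51 in place of 1.43 to 2.80. All 15 falls were called as well, with differences of -3.02 to -1.28. The part of this array in the sizes was not tested further.

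Enzymes that modify small molecules were often higher. UGT genes code for transferases that attach sugars to hormones and secondary metabolites, and of 35 tested members 15 rose and 1 fell, with a median of 0.20. Over all tested probe sets 10.9% were called higher and 9.46% lower. UGT76E11 had 7.33, 7.49 and 7.11 in brs1-1D, against 6.01, 5.65 and 6.09 in WS2 (1.39 ± 0.22, adjusted p = 0.000374). Its neighbour UGT76E12 had 4.58, 5.02 and 4.03 in brs1-1D, against 3.50, 3.39 and 3.37 in WS2, which are below the filter level (1.12 ± 0.23, adjusted p = 0.00304). These 2 genes are close paralogs, and how far their probes share signal was not tested. UGT84A3 rose by 0.71 (SE 0.11) and UGT73B4, below the filter level in WS2, by 0.61 (SE 0.10). The member that fell, UGT71C1, differed by -0.43 (adjusted p = 0.0344).

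Tau glutathione transferases attach glutathione to foreign or reactive compounds. Of 10 tested members 4 were called higher (10.9% of all tested probe sets) and none lower, while the median was -0.01. GSTU25 had 5.83, 5.31 and 5.80 in brs1-1D, against 4.46, 4.86 and 4.70 in WS2, and rose by 0.97 (SE 0.17, adjusted p = 0.000932). GSTU15 rose by 0.56 (SE 0.10). GSTU22 differed by 0.44 ± 0.13, a call lost without any 1 array other than brs1-1D replicate 2 (adjusted p 0.0546 to 0.106). GSTU16 differed by 0.29 ± 0.08 and was not called without WS2 replicate 1 (0.26, adjusted p = 0.0514).

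Of 4 tested flavonoid genes 3 were called higher (10.9% of all tested probe sets), with a median of 0.36. UGT78D2, a flavonoid glucosyltransferase gene, rose by 0.42 (SE 0.09, adjusted p = 0.00285). DFR, which codes for an enzyme of anthocyanin synthesis, had 4.34, 4.72 and 4.65 in brs1-1D, against 4.03, 3.94 and 3.85 in WS2. Its difference of 0.63 ± 0.17 was not called without brs1-1D replicate 2 (0.56) or 3 (0.59) or WS2 replicate 3 (0.58). UGT78D1 differed by 0.30 ± 0.09, and its call was lost without brs1-1D replicate 1 or 3 or WS2 replicate 2 or 3 (adjusted p 0.0591 to 0.0984).

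The serine carboxypeptidase-like family, to which BRS1 belongs, was lower more often than higher. Of 16 tested relatives 6 were called lower and 1 higher, against 9.46% and 10.9% of all tested probe sets, and the median was -0.22. The largest difference was that of scpl31, with 6.03, 5.67 and 5.90 in brs1-1D, against 6.48, 6.81 and 6.79 in WS2 (-0.82 ± 0.14, adjusted p = 0.000779). scpl25 fell by 0.45 (SE 0.09) and scpl28 by 0.39 (SE 0.08). SCPL34 differed by -0.50 ± 0.13 and was not called without WS2 replicate 2 (-0.46, adjusted p = 0.0525). The member that was called higher, scpl46, differed by 0.36 (adjusted p = 0.0436) and was named after its value was seen. In bri1-5 against WS2 3 of 16 members were called lower (8.14% of all tested probe sets), with a median of -0.21. In bak1-1D and bri1-1D 2 and 4 were called lower, where 10% and 20.7% of all tested probe sets were called. None was called in brs1-1D against bri1-5 (1.72% of all tested probe sets), and the median was 0.0045.

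The nearest tested genes with a name on each side of BRS1 on chromosome 4 were looked at as well, in the gene order of RefSeq. AT4G30620 is the second gene after BRS1 in that order, and its listed interval overlaps the end of BRS1. It had 5.58, 5.10 and 5.78 in brs1-1D, against 6.72, 6.93 and 6.74 in WS2. It fell by 1.31 (SE 0.14, adjusted p = 1.43e-05), and the groups did not overlap. Its value in bri1-5 minus WS2 was -0.10 ± 0.14. AT4G30600, the gene before BRS1, rose by 0.61 (SE 0.11, adjusted p = 0.000893). AT4G30630 (0.14 ± 0.09) and AT4G30640 (0.19 ± 0.10), 3 and 4 genes after BRS1, were not called. The other 2 tested genes before BRS1 lie farther off. AT4G30500, 12 genes away, was not called (-0.22 ± 0.10). AT4G30490, 13 genes away, differed by -0.34 ± 0.11 (adjusted p = 0.0438), and this call was lost whichever of the 6 arrays was left out (adjusted p 0.0679 to 0.13).

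Genes that mark the green shoot were close to wild type. None of 17 nuclear-encoded photosynthesis genes was called, against 20.4% of all tested probe sets, and the median was -0.09 (range -0.22 to 0.08). An unadjusted p under 0.05 was found for 1 of them, and for 5344 of all 15912 tested probe sets. None of 7 chlorophyll synthesis genes was called either (median -0.10), again with 1 at an unadjusted p under 0.05. The 2 root hair markers, the expansin genes EXPA7 (0.27 ± 0.16) and EXPA18 (-0.03 ± 0.14), were not called. Seed storage markers had no tested probe set with a name. In whole seedlings, fewer cells of a type and less RNA per cell cannot be told apart.

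Of 30 plastid photosynthesis genes 1 was called lower, a smaller share than the 9.46% of all tested probe sets, although 29 had a negative difference (median -0.25). The called gene was psbN (-0.39 ± 0.13, adjusted p = 0.0404). Its difference was -0.25 without WS2 replicate 3, and the call was lost without any 1 of brs1-1D replicates 1, 2 and 3 or WS2 replicates 1 and 3. All 15 plastid ribosomal protein genes had negative differences (median -0.44), and 5 were called lower (9.46% of all tested probe sets). The median of this list against WS2 was -0.20 in bri1-5, -0.45 in bak1-1D and -0.34 in bri1-1D. None, 2 and 4 members were called lower there, where 17.6%, 10% and 20.7% of all tested probe sets were called. rpl36 had 7.89, 7.53 and 7.43 in brs1-1D, against 8.15, 8.26 and 8.24 in WS2, and fell by 0.60 (SE 0.12, adjusted p = 0.00176). rps19 (-0.53 ± 0.15), rpl32 (-0.48 ± 0.13) and rps18 (-0.38 ± 0.12) were not called in several of the fits that left out 1 array. Without brs1-1D replicate 3 rps19 stood at -0.35. Without brs1-1D replicate 2 rpl32 stood at -0.31 and rps18 at -0.31, and without WS2 replicate 2 rps18 stood at -0.28. The 25S rRNA control read 6.24 to 7.13 in brs1-1D and 6.10 to 6.27 in WS2, and the 5S control 6.06 to 6.77 in brs1-1D and 6.62 to 7.45 in WS2. The ranges of both controls overlapped between the groups, those of 25S only between 6.24 and 6.27. Their group means still differed, brs1-1D minus WS2 being 0.54 for 25S and -0.56 for 5S. The part of these controls in the plastid values was not tested.

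Defence and hormone response lists were short, and their calls went in both directions. Among 4 jasmonate genes 1 was called higher and 1 lower, among 3 genes of pattern-triggered immunity 1 higher and 1 lower, and among 13 disease resistance genes of the NBS-LRR type 3 higher and 2 lower. Over all tested probe sets 20.4% were called. The defensin gene PDF1.4 had 5.05, 5.09 and 5.26 in brs1-1D, against 3.74, 4.16 and 3.94 in WS2, and rose by 1.19 (SE 0.21, adjusted p = 0.000852). The thionin gene THI2.1 had 3.57, 3.57 and 3.75 in brs1-1D, against 4.76, 4.07 and 4.67 in WS2. It lay above the filter level of 4 on the WS2 arrays only and so passed the filter through them, which fixes its direction, and the size of the difference (-0.87) is that of values near the bottom of the scale. PDF1.2 (0.61 ± 0.35) and PDF1.2b (0.59 ± 0.39) were not called, although the arrays of the groups did not overlap for either. EFR, the receptor for bacterial elongation factor Tu, rose by 0.75 (SE 0.15, adjusted p = 0.00238). WRKY22, which acts in the same immune pathway, differed by -0.59 ± 0.18 on overlapping arrays, and its call was lost without brs1-1D replicate 1 or 3 or WS2 replicate 2 or 3 (adjusted p 0.0739 to 0.118). Among the NBS-LRR genes AT1G72900 fell by 1.06 (SE 0.11) and LOV1 rose by 0.72 (SE 0.12). WRKY22 was the only 1 of 5 WRKY genes called. The 2 salicylic acid genes, the 2 ethylene genes and the 1 clock gene GI were not called, and their differences lay between -0.12 and 0.21.

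The 2 largest rises were at probe sets for which no gene is listed. 253579_at had 11.20, 11.15 and 10.98 in brs1-1D, against 6.46, 6.53 and 6.49 in WS2. It rose by 4.61 (SE 0.08, adjusted p = 4.9e-16), a 24.5-fold higher level. Which gene 253579_at measures was not determined. 245501_at had 6.59, 6.63 and 6.84 in brs1-1D, against 3.05, 3.24 and 3.00 in WS2. It rose by 3.59 (SE 0.10), and the WS2 values lie below the filter level. 265418_at rose by 2.56 (SE 0.23). 260856_at fell by 2.45 (SE 0.19), 245757_at by 2.40 (SE 0.21) and 247925_at by 2.25 (SE 0.29), all less than AT1G14210 (-3.05) and EXO (-2.71). Of all called probe sets 1501 have no listed gene, against 1686 with 1 gene.

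The same model gave side values against the parent mutant, and these share the brs1-1D arrays or the WS2 arrays with the results above. The parent bri1-5 differed from WS2 at 2799 probe sets (17.6%), and brs1-1D differed from bri1-5 at 273 (1.72%), 188 higher (1.18%) and 85 lower (0.534%). EXO was lower in bri1-5 than in WS2 (-2.26 ± 0.18), and its difference between brs1-1D and bri1-5 was -0.46 ± 0.18 (adjusted p = 0.211). EXPA8 (0.17 ± 0.18), XTH16 (-0.27 ± 0.14), XTH19 (-0.23 ± 0.14) and TUB1 (0.10 ± 0.11) were likewise not called in brs1-1D against bri1-5. ARL was lower in brs1-1D than in bri1-5 as well (-0.54 ± 0.10, adjusted p = 0.0139). AT1G14210 (-0.22 ± 0.12) and APL4 (-0.15 ± 0.10) were not called there.

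Other genes differed from both WS2 and bri1-5 in brs1-1D. AT1G10585 (1.56 ± 0.32, adjusted p = 0.0189), AT4G28140 (1.32 ± 0.27), AT1G47400 (1.23 ± 0.28, adjusted p = 0.0389), UGT76E12 (1.21 ± 0.23) and AT5G53710 (1.14 ± 0.27) were higher than in bri1-5. AT1G10585 differed by 0.05 ± 0.32 and UGT76E12 by -0.08 ± 0.23 in bri1-5 minus WS2, but both genes lay below the filter level of 4 on all arrays of both these genotypes, so a difference there could have been missed. AT4G30620 (-1.21 ± 0.14), AT3G10040 (-1.08 ± 0.25, adjusted p = 0.0389), AT3G23880 (-0.95 ± 0.19), AT1G33055 (-0.93 ± 0.16) and AT4G28703 (-0.92 ± 0.16) were lower than in bri1-5. Against WS2, AT4G28703 fell by 0.96 (SE 0.16), and AT3G23880 differed by -0.69 ± 0.19, a call lost without brs1-1D replicate 2 (-0.51) or WS2 replicate 2 (-0.56). 253579_at was higher than in bri1-5 by 5.32 ± 0.08, while bri1-5 minus WS2 was -0.71 ± 0.08. The effect of leaving out arrays was computed for the comparison with WS2 only.

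**Figure D5:**
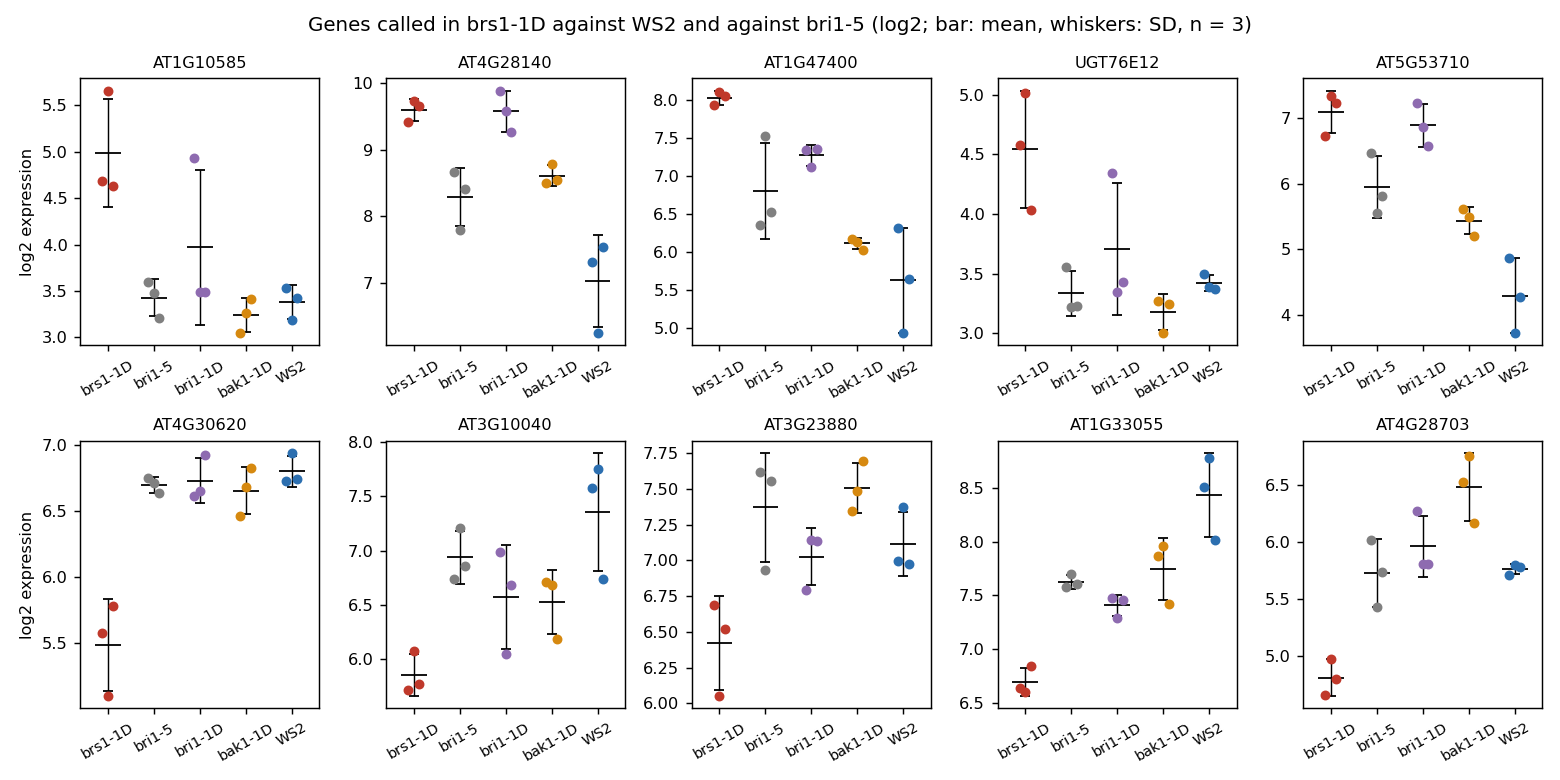
Log2 expression of 10 genes called in brs1-1D against WS2 and against bri1-5, on the 3 arrays of each genotype (points), with bars at the mean and whiskers of 1 SD; the vertical axes are log2 and differ between panels. AT4G30620 lies between 5.10 and 5.78 in brs1-1D, below all arrays of the other genotypes.

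The lists are given here with the parent mutant beside them. In brs1-1D against bri1-5, 0.534% of all tested probe sets were called lower and 1.18% higher. The brassinosteroid-induced list had 1 of 5 members called lower there and the XTH list none of 6, with medians of -0.23 and -0.18. In bri1-5 against WS2, where 8.14% of all tested probe sets were lower, 5 of 5 and 4 of 6 were called lower, with medians of -1.29 and -0.83. On the hypoxia list 5 of 20 members were lower and 2 higher in bri1-5 than in WS2, with a median of -0.19. Over all tested probe sets 17.6% were called there. In bak1-1D against WS2 8 members were lower and 2 higher (10% of all tested called). For bri1-1D 8 were lower and 3 higher (20.7% of all tested called). In brs1-1D, 4 of 20 members of this list were lower than in bri1-5, against 0.534% of all tested probe sets. They were AT1G33055 and AT3G10040, given above, and AT4G27450 (-0.64, adjusted p = 0.00159) and AT5G10040 (-0.60, adjusted p = 0.0373), which were named after their values were seen. The iron list had 2 of 8 members higher in brs1-1D than in bri1-5, against 1.18% of all tested probe sets. They were AT1G47400 and AT3G61930 (1.10 ± 0.15, with the limit given above). The median of the iron list in bri1-5 minus WS2 was 0.01. Of 10 tau glutathione transferases 3 were higher than in bri1-5 (1.18% of all tested probe sets), GSTU25 (1.00 ± 0.17), GSTU22 (0.77 ± 0.13) and GSTU20 (0.41 ± 0.09).

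Against bak1-1D, the suppressor line with the fewest calls against WS2 (1595, 10%, where bri1-1D had 3300, 20.7%), brs1-1D differed at 1270 probe sets (7.98%), 635 in each direction (3.99% each). EXO was lower in brs1-1D than in bak1-1D (-2.09 ± 0.18, adjusted p = 9.79e-06). EXPA8 (-0.93 ± 0.18), XTH18 (-0.97 ± 0.14), XTH19 (-0.75 ± 0.14), ARL (-0.58 ± 0.10) and CML38 (-1.20 ± 0.22) were also lower. TUB1 (-0.31 ± 0.11, adjusted p = 0.0956) and XTH16 (-0.25 ± 0.14) were not called. The iron list had 6 of 8 members higher in brs1-1D than in bak1-1D, with a median of 0.76, among them AT1G47400 (1.92 ± 0.28, adjusted p = 0.000704) and PYE (0.82 ± 0.16). BIM1 (0.51 ± 0.11, adjusted p = 0.00782) was higher than in bak1-1D as well.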

How the data were processed

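The authors deposited log2 values made with GCRMA, per the submitters' processing notes. Neither its version nor its settings could be learned from the labels. The method subtracts background, brings arrays to a common distribution and joins the probes of a set into 1 value, and it can pull low values together. No counts stand behind array values, so the number of arrays limits the precision.

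Probe sets above 4 on at least 3 of the 15 arrays were kept and array controls left out. A limma model (lmFit and eBayes without trend; version 3.58.1, run under R 4.3.3) held a mean for each genotype and took in all 15 arrays, and p-values were adjusted by Benjamini-Hochberg. The p-values measure the spread between arrays that the study calls biological replicates. The procedure was tested on simulated data. Genes came from the platform annotation, which lists 1 gene for 13513 probe sets, several for 503 and none for 8730, and 13436 matched a RefSeq locus of TAIR10.1. No level was compared between probe sets.

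The comparison, the members and the 37 gene lists were chosen with earlier results of these data known, and entries whose symbol matched another gene were removed after values were seen. Genes named are the 15 largest called rises and falls, up to 4 called members of each list, all members of lists with few tested genes, 5 calls in each direction against bri1-5, 3 probe sets without a listed gene in each direction, and 3 tested genes on either side of BRS1. Members named outside this rule are marked as named after their values were seen. Replicate numbers come from the titles, since the descriptions repeat 1 number for every brs1-1D array. The alternatives were other normalizations, filters, samples, weights, variance priors, a replicate block, and leaving out each array.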

Additional observations from a re-analysis of the deposited data

How the results depend on the processing

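Counts of calls stayed within 1.5 times of those reported, but their balance did not always hold. The 3241 calls became 2521 of 11243 tested probe sets with values above 6 required, 2827 with the 6 arrays alone and 3302 after centring on array medians (1563 higher and 1739 lower, in place of 1735 and 1506), and the calls of at least 2-fold lay between 182 and 237 in the 8 settings that kept all replicates. Leaving out 1 array gave 2309 (without WS2 replicate 2) to 2681 calls, and the balance also turned without brs1-1D replicate 1 (1324 higher and 1357 lower). These fits gave 206 to 274 of at least 2-fold and 74 to 84 list members in place of 96. With the replicate number as a block there were 3710 calls, 234 of at least 2-fold and 106 list members. Deviations of brs1-1D and WS2 arrays with the same number correlated at -0.09, -0.13 and 0.16, and brs1-1D replicate 1 correlated best with WS2 replicate 2 (0.23). The 5S rRNA control, however, was lowest on replicate 3 in every genotype, at 6.06 in brs1-1D and 6.62 in WS2. With 3 arrays in each group these correlations cannot settle whether the numbers pair the samples, and the main model held no block. Of 102 named calls 78 held in every setting run, 24 were lost without at least 1 array, and none reversed. Among those 24, 4 were also lost elsewhere: rps18 after renewed quantile normalization (adjusted p = 0.0584) and with array weights (0.0516), AT4G30490 without a filter (0.0519), JAL22 with the 6 arrays alone (0.0862) and AT4G36150 with array weights (0.0632).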

Other observations

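Genes outside the comparisons above also differed in brs1-1D, and AT5G05600 and AT2G38240 were chosen after their values were seen. AT5G05600 and AT2G38240 code for oxidases that inactivate jasmonate. AT5G05600 had 8.01, 8.01 and 7.97 in brs1-1D, against 7.11, 7.13 and 7.21 in WS2 (0.85 ± 0.21, adjusted p = 0.00885), and AT2G38240 had 5.75, 5.96 and 5.84 in brs1-1D, against 5.08, 5.05 and 5.25 in WS2 (0.72 ± 0.18, adjusted p = 0.0109). Their values in bri1-5 minus WS2 were -0.17 ± 0.21 and -0.14 ± 0.18. The jacalin lectin gene JAL23 had 6.78, 7.17 and 7.34 in brs1-1D, against 7.60, 7.18 and 7.43 in WS2, and was not called (-0.31 ± 0.27, adjusted p = 0.453). JAL23 was higher in brs1-1D than in bri1-5 by 1.14 ± 0.27 (adjusted p = 0.0406), and bri1-5 minus WS2 was -1.45 ± 0.27.

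Among 4 glucosinolate genes, AOP1 fell by 0.38 (SE 0.10, adjusted p = 0.0106). UGT74B1, a glucosyltransferase of glucosinolate synthesis, differed by 0.31 ± 0.08, and its call was lost without brs1-1D replicate 2 or WS2 replicate 2 (adjusted p = 0.0719 and 0.0575). Among 4 heat shock and folding genes only Fes1A was called (0.40 ± 0.12, adjusted p = 0.0317), a call that was lost without any 1 array other than WS2 replicate 2. JAL22 was the only 1 of 4 jacalin genes called (-0.28 ± 0.08, adjusted p = 0.0248), and it was not called without brs1-1D replicate 3 (-0.23) or WS2 replicate 2 (-0.20).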
